A study of Mus musculus with 10 samples.

Results

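Histone-modifying enzymes whose gene names follow the systematic Kdm, Kmt, Setd, Hdac, Kat, Sirt and Prmt series, together with Ezh1, Ezh2, Ehmt1, Ehmt2, Suv39h1 and Suv39h2, were followed in 10 RNA-seq libraries of mouse oocytes and early embryos. The rule used names only and found 65 of the 21437 genes in the expression table. The stages were MII oocytes, 2-cell embryos (middle) and 4-cell embryos (early), the embryos with and without knockdown (kd) of Ago2, the Argonaute protein that cleaves mRNAs paired with small RNAs, and each of the 5 groups had 2 libraries. The question was how the levels of these enzymes moved over the maternal-to-zygotic transition and whether the kd changed them.

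MII oocytes and control embryos were labelled wild type, kd embryos were labelled Ago2-kd, and ICR was given as the strain of every sample. The study's methods took oocytes from ICR females at 16 h after hCG and embryos at 40 h and 55 h from crosses of F1 mice, so strain and stage cannot be told apart between oocytes and embryos. The females were 7 weeks old and superovulated with PMSG and hCG, and embryos were cultured in KSOM medium. For the kd, 3 siRNAs were designed against Ago2 and were injected into zygotes along with AGO2 antibodies, and a scrambled siRNA was the negative control. Whether the sequenced control embryos were injected was not given in the sources used here, so injection and kd cannot be told apart. The number of embryos pooled per library and whether the replicates were separate collections were not given in the sources used here, so p values measure the spread between these libraries, which may be technical. A two-sided exact permutation test of 2 libraries against 2 could not go below p = 0.333, and the tests therefore rest on a spread estimated across genes and groups. Ago2 mRNA was not analysed here.

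Histones carry acetyl and methyl groups that enzymes add ("writers") or remove ("erasers"). Acetylation loosens chromatin and accompanies transcription, whereas the effect of methylation depends on the residue: H3K4 methylation marks active promoters and enhancers, and H3K9 and H3K27 methylation mark silenced chromatin. The oocyte stores mRNAs of many such enzymes, and these maternal mRNAs are degraded while the zygotic genome is switched on, which in the mouse happens mainly at the 2-cell stage, so each enzyme family can pass from maternal to zygotic members within a few cell cycles.

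Expression was given as FPKM, fragments scaled to transcript length and to the mapped fragments of the library, and was tested on the scale log2(FPKM + 1) by limma, a linear model fitted gene by gene. All log2 changes below are on that scale, which understates the change of low genes. The depth of the libraries is unknown. A total of 40 members reached 1 FPKM in at least 2 libraries and were tested among 8726 genes, and the other 25 were not. FPKM summed to 178681 to 458874 per library, of which the 65 members took 0.0814% to 0.15%. The MII oocyte libraries summed to 450124 and 458874 FPKM, and the control 2-cell libraries to 196312 and 203645 FPKM. The main fit and the maternal classes did not scale for this difference, which enters every change from the oocyte. Pearson's r between replicates over the tested genes was 0.75 to 0.913, and 4-cell Ago2 kd replicate 1 stood apart: 14.6% of the genes above 10 FPKM in its partner were below 0.1 FPKM in it, against 1.61% to 5.81% in the other 9 libraries. Gapdh, a gene that every cell uses, did not exceed 0.167 FPKM in any library, so a member listed at or near 0 was not read as absent. The oocyte values are those deposited, and for most of the genes that the study's supplement lists its oocyte columns hold other values, so oocyte levels, changes from the oocyte and maternal classes rest on the deposited version. The 9 oocyte markers summed to 8865 FPKM or more in MII oocytes, and the 2 cumulus and granulosa cell markers in the table, Foxl2 and Amhr2, were listed at 0 in the oocyte and 2-cell libraries and summed to 1.75 FPKM at most.

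Among the 25 members not tested, 20 stayed under 1 FPKM in every library and 5 reached 1 FPKM in a single library. Kat2a, Kdm4b and Setd1b were listed at 0 in all 10 libraries. Families were formed by gene name, so a row such as Kmt2e need not have the activity that names its family. The H3K4 methyltransferases had 5 of their 6 members under 1 FPKM throughout (Kmt2b, Kmt2e, Setd1a, Setd1b and Setd7), and the lysine demethylases 6 of 16. Of the class IIa deacetylases, Hdac4, Hdac5 and Hdac7 reached 0.127 FPKM at most. Ezh1, the paralog of Ezh2 and alternative catalytic subunit of Polycomb repressive complex 2, stayed at or below 0.17 FPKM, and Setdb1, which trimethylates H3K9, at or below 0.0124 FPKM. The 6 sirtuins in the table all passed the filter. Among the names without a row were Sirt3, Hdac3, the class IIa member Hdac9, Kmt2a and Kmt2d. This list is not complete, so the family counts and shares given here cover only the rows found. In GENCODE M21, many members overlap other genes. Of those called in a comparison below, Kdm1b, Prmt6, Setd4 and Sirt1 overlap genes on the opposite strand. Sirt7 overlaps Mafg and Prmt2 overlaps Mir678 on the same strand, and Prmt3 and Prmt10 overlap genes on both strands. Suv39h2, Ezh2, Kdm1a, Sirt2 and Kat5 are among the others with an overlap. Without knowledge of strand, reads of such members may be shared.

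**Figure D1:**
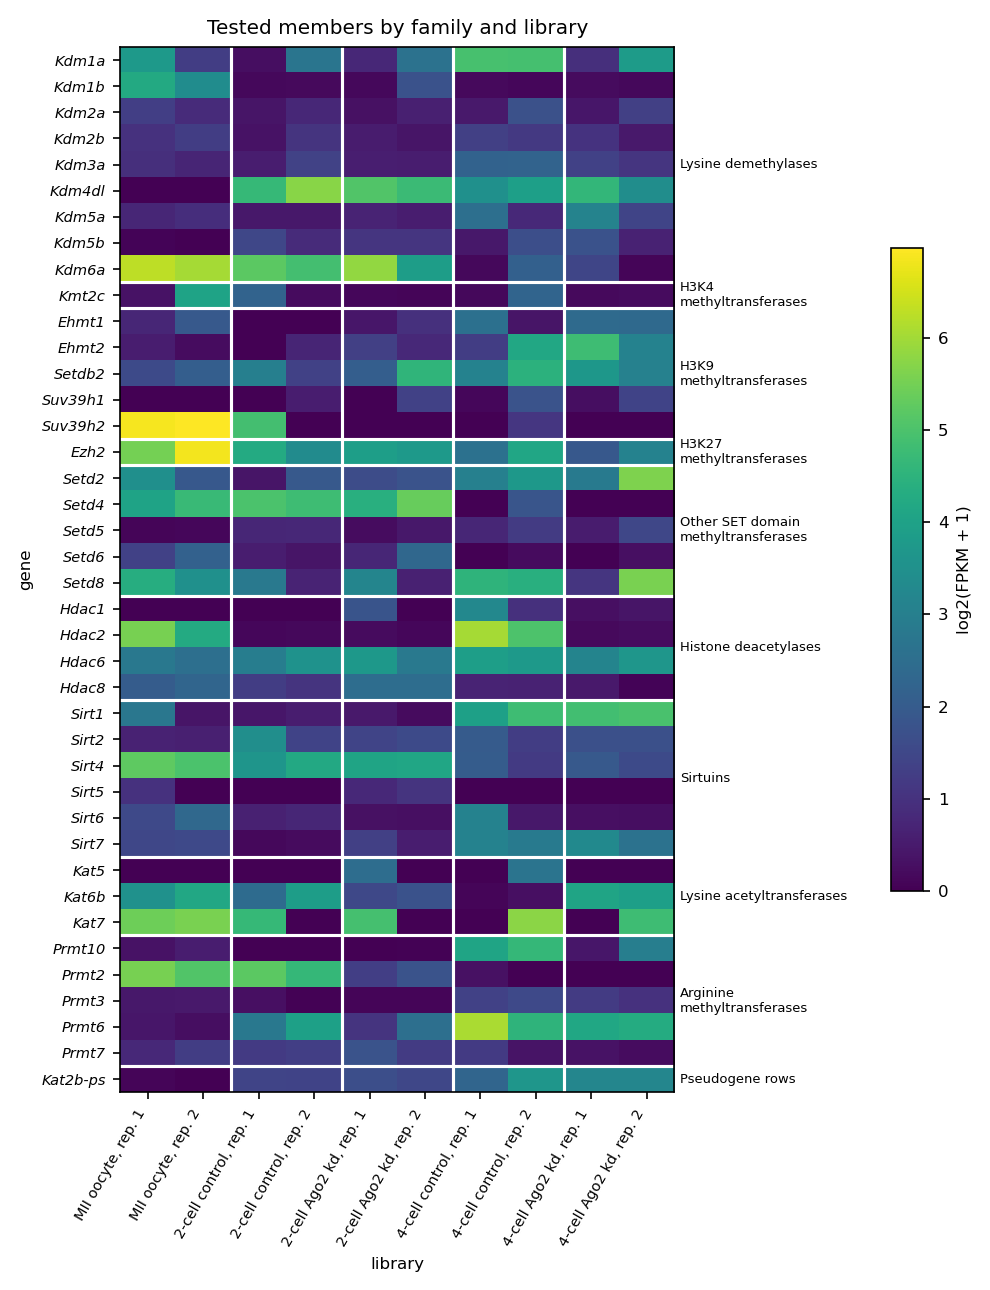
Heat map of the 40 tested members (rows, grouped by family) in the 10 libraries (columns, rep. = replicate), coloured by log2(FPKM + 1). Hdac2 is bright in MII oocytes and 4-cell control embryos only among the 5 groups, Kat6b is dark in 4-cell control embryos, and Suv39h2 is brightest in MII oocytes.

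The 3 members whose level was called changed after Ago2 kd at one of the stages, Hdac2, Kat6b and Prmt2, are introduced by their promoters, because the study asked whether AGO2 acts on promoters as well as on mRNAs. Hdac2 (ENSMUSG00000019777.16, chromosome 10, 36974544 to 37001889, plus strand) encodes a class I histone deacetylase, Kat6b (ENSMUSG00000021767.18, chromosome 14, 21481434 to 21672478, plus strand) a MYST-family lysine acetyltransferase, and Prmt2 (ENSMUSG00000020230.15, chromosome 10, 76207222 to 76237865, minus strand) an arginine methyltransferase; all are protein coding in GENCODE M21 on GRCm38. The 250 bases before the RefSeq transcription start (GRCm38.p6) are printed on the strand of the gene, with GGGCGG, the core of the GC box, or its reverse complement CCGCCC in capitals. They span chr10:36974294-36974543 for Hdac2, chr14:21499520-21499769 for the upstream of the 2 starts that RefSeq lists for Kat6b, and chr10:76237866-76238115 for Prmt2. The Kat6b window lies inside the GENCODE gene, whose annotated start at 21481434 is farther upstream. These windows are shorter than the stretch upstream of the start that the study searched, so they do not cover all of it.
Hdac2: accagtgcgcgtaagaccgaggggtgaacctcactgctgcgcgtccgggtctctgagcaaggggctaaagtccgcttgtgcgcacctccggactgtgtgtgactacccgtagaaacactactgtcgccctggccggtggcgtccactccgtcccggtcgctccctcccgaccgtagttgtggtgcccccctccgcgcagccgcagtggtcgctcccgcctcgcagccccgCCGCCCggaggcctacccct
Kat6b: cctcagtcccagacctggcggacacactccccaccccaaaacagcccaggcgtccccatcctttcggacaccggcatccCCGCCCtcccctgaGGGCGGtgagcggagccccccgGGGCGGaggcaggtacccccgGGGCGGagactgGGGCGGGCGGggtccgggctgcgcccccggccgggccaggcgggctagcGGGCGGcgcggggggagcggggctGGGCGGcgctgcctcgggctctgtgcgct
Prmt2: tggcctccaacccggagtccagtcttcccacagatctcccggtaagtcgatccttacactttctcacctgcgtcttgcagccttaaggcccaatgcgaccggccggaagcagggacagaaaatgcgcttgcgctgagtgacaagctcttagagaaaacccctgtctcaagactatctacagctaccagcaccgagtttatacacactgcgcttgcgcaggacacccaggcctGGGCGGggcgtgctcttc

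The windows of Hdac2 and Kat6b each held 27 CpG dinucleotides, more than in 91.8% of the 27025 RefSeq promoters of that length, whereas Prmt2 held 14 and all promoters had a median of 6. GGGCGG, counted on both strands and with overlaps, occurred 8 times in Kat6b and 1 time in each of the others, and 32.9% of all promoters held it. Prmt2 also held CCAAT and TATAAA on either strand, which 34.5% and 13% of promoters held, and neither was in the windows of Hdac2 or Kat6b. These are matches of letters, a missing match says only that the letters are not in the window, and none was tested against the kd.

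From MII oocytes to control 2-cell embryos, 4 of the 40 tested members (10%) passed an adjusted p of 0.05 in limma, against 20.8% of all tested genes. Hdac2 and Kdm1b fell (5%, against 14.2% of all genes) and Kdm4dl and Prmt6 rose (5%, against 6.54%). At an unadjusted p of 0.05, 12 members passed, or 30% against 32.7% of all genes. The median log2 change was -0.47 over the members and -0.06 over all tested genes. With each library scaled to the same median, these values were -0.17 and 0.05. Both shares of called members were below those of all genes. In pooled embryos, fewer cells that hold an mRNA and less of that mRNA per cell cannot be told apart.

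From control 2-cell to 4-cell embryos, 12 members (30%) were called, against 38.6% of all tested genes. Hdac2, Kat2b-ps, Kdm3a, Prmt10, Prmt3, Sirt1 and Sirt7 rose (17.5%, against 21.1% of all genes), and Kat6b, Kdm6a, Prmt2, Setd4 and Sirt4 fell (12.5%, against 17.5%). At an unadjusted p of 0.05, 17 members passed (42.5% against 46.9%). The median log2 change was 0.56 over the members and 0.24 over all tested genes. The latter was 0.00 when each library was scaled to the same median, and the median of the members was then 0.34. Without 4-cell control replicate 2 the medians were 0.01 and 0.12. The sirtuins, the arginine methyltransferases and the lysine demethylases each held called members of both directions.

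Among the histone deacetylases, which remove acetyl groups from lysines, the zinc-dependent class I enzyme Hdac2 showed the widest swing. Its level was 45.5 and 18.2 FPKM in the MII oocyte libraries, 0.0881 and 0.118 FPKM in control 2-cell embryos, then 64.0 and 31.3 FPKM in control 4-cell embryos. Both 2-cell libraries lay far below every oocyte and 4-cell control library, so no groups overlapped across either step. The first log2 change was -4.76 (SE 0.54, adjusted p = 0.00153, limma) and the following rise was 5.38 (SE 0.54, adjusted p = 0.000518), and both steps share the 2-cell control libraries. Hdac2 supplied 83.3% and 67.7% of the summed FPKM of its family in oocytes. Hdac6, a mainly cytoplasmic deacetylase of tubulin, led the family in both control 2-cell libraries with 6.82 and 10.7 FPKM. Its log2 change of 0.58 (SE 0.45, adjusted p = 0.447) did not pass the test, and of the tested deacetylases it was farthest from Hdac2 at this step, by 5.34 log2 units. Hdac1, the close paralog of Hdac2, was listed at 0 in both oocyte and both control 2-cell libraries and had 8.57 and 0.964 FPKM in control 4-cell embryos (adjusted p = 0.0803, or 0.0212 without 4-cell control replicate 2). Hdac8, a class I enzyme that deacetylates cohesin, had 3.1 and 3.84 FPKM in oocyte replicates, 1.42 and 1.08 FPKM in 2-cell embryos, then 0.616 and 0.584 FPKM in 4-cell control embryos. The steps of Hdac8 did not pass after adjustment (adjusted p = 0.0694 and 0.265), although no groups overlapped. Its first log2 change of -0.99 shrank to -0.50 with median scaling and to -0.67 with quantile normalization.

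Sirtuins are deacylases that depend on NAD. The leading member changed from Sirt4, a mitochondrial enzyme, to Sirt1, a nuclear deacetylase. Sirt4 had 37.1 and 31.1 FPKM in the MII oocyte libraries, 11.4 and 17.4 FPKM in 2-cell embryos, then 3.07 and 1.26 FPKM in 4-cell control embryos. The levels of Sirt4 stepped down without overlap, and the second step was called (log2 change -2.32, SE 0.43, adjusted p = 0.00607), whereas the first was not (-1.21, SE 0.43, adjusted p = 0.096). The first step shrank to -0.53 with median scaling and to -0.32 with quantile normalization. The second was then -2.73 and -2.81. Sirt1 had 5.86 and 0.315 FPKM in oocyte replicates, 0.334 and 0.479 FPKM in 2-cell and 14.6 and 26.9 FPKM in 4-cell control embryos. Its oocyte replicates differed widely and overlapped the 2-cell libraries, and its rise to the 4-cell stage was 3.90 log2 units (SE 0.76, adjusted p = 0.00727). Sirt1 and Sirt4 differed by 6.21 log2 units in their change at this step, the widest gap within the family. Sirt7, a nucleolar sirtuin, had 1.82 and 1.89 FPKM in oocyte replicates, 0.107 and 0.149 FPKM in 2-cell and 7.53 and 6.33 FPKM in 4-cell control embryos. It rose by 2.81 at the second step (SE 0.42, adjusted p = 0.00242), and the first step had an adjusted p of 0.0653. Sirt2, a largely cytoplasmic deacetylase, went the other way at the first step, with 0.593 and 0.541 FPKM in oocyte replicates and 9.79 and 1.64 FPKM in 2-cell embryos, a change that was not called (1.77, SE 0.66, adjusted p = 0.11). It was 2.78 and called without 2-cell control replicate 2 (adjusted p = 0.0155) and 0.75 without replicate 1.

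Among the lysine acetyltransferases, Kat6b had 10.6 and 17.3 FPKM in the MII oocyte libraries, 4.44 and 13.8 FPKM in control 2-cell embryos, then 0.0591 and 0.22 FPKM in control 4-cell embryos. Both 4-cell control libraries lay below every earlier library, and the log2 change of -2.98 was called (SE 0.54, adjusted p = 0.00556), although not in a fit with these groups alone (adjusted p = 0.0557). Kat7, which acetylates H3K14 and H4, had the highest mean of its family, 22.3 FPKM over the 10 libraries, but was split between replicates. It was at 42.2 and 46.9 FPKM in oocyte replicates, 24.3 and 0 FPKM in control 2-cell embryos, then 0 and 53.2 FPKM in control 4-cell embryos. Neither step could be told from this spread (SE 2.74, adjusted p = 0.506 and 0.916). Kat5, the catalytic subunit of the TIP60 complex, was listed at 0 in 8 libraries, with 4.65 FPKM in 2-cell Ago2 kd replicate 1 and 5.37 FPKM in 4-cell control replicate 2. The pseudogene row Kat2b-ps, a processed copy of Kat2b on chromosome 5, had 0.0711 and 0 FPKM in oocyte replicates, 1.69 and 1.66 FPKM in 2-cell and 3.83 and 11.6 FPKM in 4-cell control embryos, while Kat2b itself did not exceed 0.38 FPKM. The rise of Kat2b-ps at the second step (1.54, SE 0.49, adjusted p = 0.0443) was lost under each of the 6 other settings of the model, where the adjusted p was 0.0578 to 0.175. Reads of a gene and its processed copy can be split by the alignment, so this row is uncertain.

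Among the methyltransferases of repressive marks, Suv39h2 and Ezh2 were highest in oocytes. Suv39h2, which trimethylates H3K9 in heterochromatin, had 117 and 125 FPKM in the MII oocyte libraries, the highest level of any member, 28.4 and 0 FPKM in control 2-cell embryos, then 0 and 1.14 FPKM in control 4-cell embryos. Both oocyte libraries lay above both 2-cell libraries, but the 2-cell replicates were split, and the change of -4.49 (SE 1.38) had an adjusted p of 0.0637. Without 2-cell control replicate 1 it was -6.92 and was called (adjusted p = 0.00202), and without replicate 2 it was -2.05 (adjusted p = 0.0703). Ezh2, the main catalytic subunit of Polycomb repressive complex 2, had 44.8 and 115 FPKM in oocyte replicates, 18.3 and 9.24 FPKM in 2-cell and 5.04 and 16.4 FPKM in 4-cell control embryos. Its first step of -2.38 (SE 0.74, adjusted p = 0.0647) did not pass after adjustment, and the 2-cell and 4-cell libraries overlapped. This first step of Ezh2 was -1.68 with median scaling and -1.44 with quantile normalization. Setdb2, an H3K9 methyltransferase, had 1.95 and 3.2 FPKM in oocyte replicates, 7.08 and 1.53 FPKM in 2-cell and 7.59 and 21.3 FPKM in 4-cell control embryos. Ehmt2, which dimethylates H3K9 in euchromatin, had 0.467 and 0.18, then 0 and 0.634, then 1.41 and 17.1 FPKM. By the 4-cell stage these enzymes stood above Suv39h2, but neither their rises nor the fall of Suv39h2 at that step was called (adjusted p = 0.234, 0.105 and 0.322). Single libraries decided this in part: the change of Ehmt2 was 3.83 and called without 4-cell control replicate 1 (adjusted p = 0.02) and 0.92 without replicate 2, and Suv39h2 was called without 2-cell control replicate 2.

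Of the other SET domain enzymes, Setd4, a lysine methyltransferase, had 15.4 and 25.3 FPKM in oocyte replicates, 30.7 and 26.8 FPKM in control 2-cell embryos, then 0 and 2.57 FPKM in control 4-cell embryos. It was thus high up to the 2-cell stage, and its log2 change of -3.97 at the second step was called (SE 0.67, adjusted p = 0.00411). Setd8, the H4K20 monomethyltransferase now named Kmt5a, had 19.2 and 10.3, then 6.09 and 0.617, then 22.1 and 20.0 FPKM at the same stages. The groups did not overlap across either step of Setd8, yet with an SE of 1.55 neither was called (adjusted p = 0.411 and 0.219). Setd4 and Setd8 differed by 6.68 log2 units in their change from the 2-cell to the 4-cell stage. Kmt2c, which monomethylates H3K4 at enhancers, was the single H3K4 methyltransferase tested and was split in each control group, with 0.262 and 15.5, 3.7 and 0.148, and 0.106 and 3.77 FPKM.

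Lysine demethylases erase these marks, and Kdm6a led the family in both oocyte libraries, Kdm6a or Kdm4dl in the 2-cell control libraries and Kdm1a in both 4-cell control libraries. Kdm6a (chromosome X, 18162575 to 18279936), which demethylates H3K27, had 76.7 and 65.0 FPKM in the MII oocyte libraries, 36.3 and 28.6 FPKM in 2-cell embryos, then 0.107 and 3.44 FPKM in 4-cell control embryos. It stepped down without overlap, and the second step was called (log2 change -3.90, SE 0.90, adjusted p = 0.0139), although not without 2-cell control replicate 1, 2-cell control replicate 2 or 4-cell control replicate 1 (adjusted p = 0.0694, 0.052 and 0.0704), nor in a fit with these groups alone (adjusted p = 0.0526). Kdm1b, an H3K4 demethylase required in growing oocytes for maternal imprints, had 17.9 and 9.51 FPKM in oocyte replicates, 0.103 and 0.132 FPKM in 2-cell and 0.126 and 0.0978 FPKM in 4-cell control embryos. Kdm1b was above 1 FPKM only in the oocytes among the control groups, with a first log2 change of -3.66 (SE 0.55, adjusted p = 0.00444) and a second step of -0.01 (SE 0.55). Kdm1a, its paralog with the same activity, had 12.3 and 1.42, then 0.208 and 5.6, then 29.9 and 29.2 FPKM. Its 4-cell control libraries lay above every earlier one, but the change of 3.44 (SE 1.35) had an adjusted p of 0.0868.

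Kdm4dl, a row that GENCODE M21 annotates as an unprocessed pseudogene beside the H3K9 demethylase gene Kdm4d (chromosome 9, 14450836 to 14452022, minus strand, 1 transcript), was listed at 0 in both oocyte libraries. It had 24.7 and 51.8 FPKM in control 2-cell embryos, then 10.4 and 14.2 FPKM in control 4-cell embryos. The appearance at the 2-cell stage was called (adjusted p = 0.00112, no fold given against 0), and the step down after it was not (-1.49, SE 0.54, adjusted p = 0.0689). Kdm4d itself was listed at 0 in 9 libraries and at 0.761 FPKM in 2-cell control replicate 2, and alignment could split reads between these near copies. Kdm3a, which removes H3K9 mono- and dimethylation, had 0.48 and 1.6 FPKM in 2-cell and 3.53 and 3.63 FPKM in 4-cell control embryos. The call on this rise (1.22, SE 0.35, adjusted p = 0.0319) was lost under each of the 6 other settings of the model (adjusted p = 0.0507 to 0.143).

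**Figure D2:**
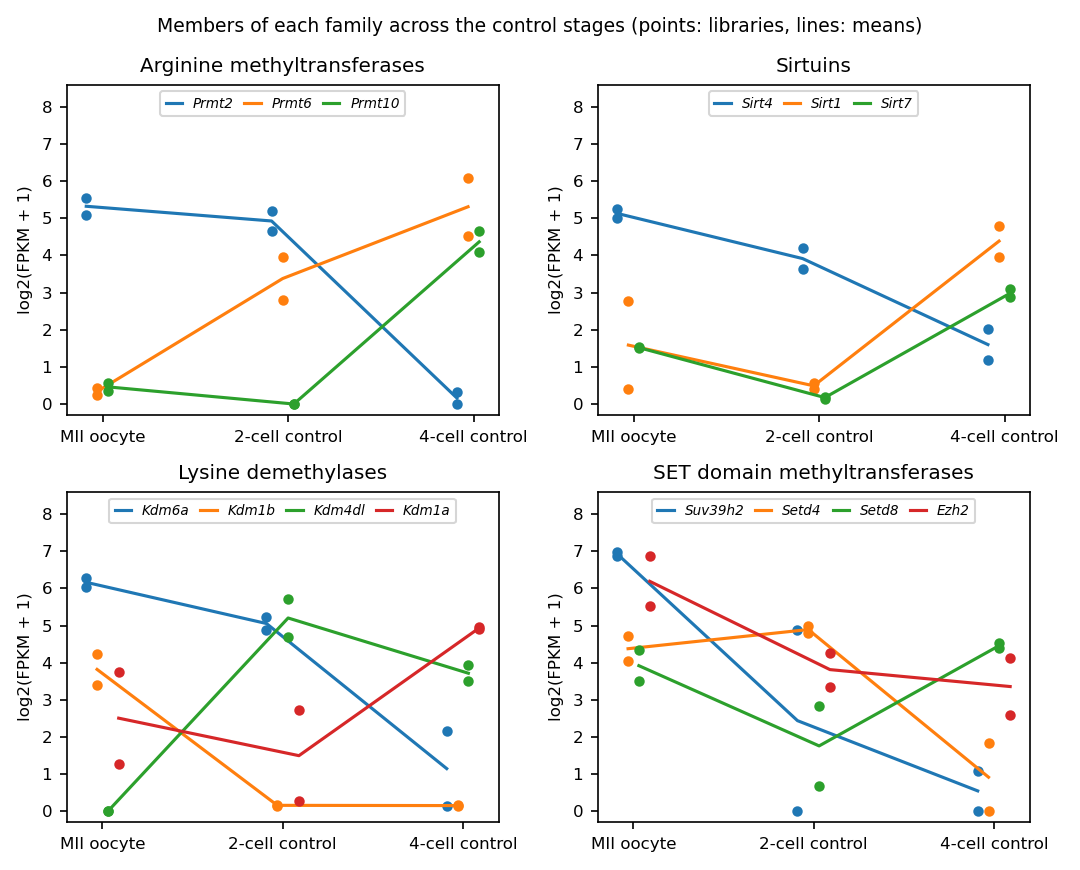
Levels of selected members, as log2(FPKM + 1) on the vertical axis, in MII oocytes, control 2-cell and control 4-cell embryos (points, 2 libraries per stage; lines, means). Prmt2, Sirt4, Kdm6a and Setd4 come down by the 4-cell stage while Prmt10, Sirt1 and Sirt7 come up; the 2 points of Suv39h2 at the 2-cell stage, 28.4 and 0 FPKM, are far apart.

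Arginine methyltransferases exchanged members between the 2-cell and the 4-cell stage. Prmt2, which can dimethylate H3R8 asymmetrically, had 46.0 and 33.0 FPKM in the MII oocyte libraries, 35.9 and 24.0 FPKM in control 2-cell embryos, then 0.249 and 0 FPKM in control 4-cell embryos. It took 96.4% and 93% of the family's summed FPKM in oocyte replicates and 81.7% and 60.1% at the 2-cell stage. After a first step within the spread of the replicates (-0.40, SE 0.40, adjusted p = 0.586) its log2 change was -4.77 (SE 0.40, adjusted p = 0.000263). Prmt6, which dimethylates H3R2 and opposes H3K4 methylation, had 0.348 and 0.19 FPKM in oocyte replicates, 5.98 and 14.5 FPKM in 2-cell and 67.2 and 22.1 FPKM in 4-cell control embryos. The libraries of Prmt6 were higher at each later stage, without overlap. The first rise was called (3.04, SE 0.73, adjusted p = 0.0271), but not without MII oocyte replicate 1, MII oocyte replicate 2 or 2-cell control replicate 2 (adjusted p = 0.113, 0.125 and 0.139), without the filter (adjusted p = 0.0557) or with these groups alone (adjusted p = 0.0563), and the second was not (1.93, SE 0.73, adjusted p = 0.0776). Prmt10, named Prmt9 in the annotation and known to methylate a splicing factor, was listed at 0 in both control 2-cell libraries and had 15.9 and 24.1 FPKM in control 4-cell embryos (adjusted p = 0.00469). Prmt3, which methylates a ribosomal protein, went from 0.21 and 0.0318 FPKM to 1.56 and 1.88 FPKM (1.28, SE 0.21, adjusted p = 0.00412). Prmt1, the main arginine methyltransferase of most cells, did not exceed 1.27 FPKM, and Prmt5, which makes symmetric dimethylarginine, was listed at 0 in 8 libraries but at 24.2 FPKM in 4-cell control replicate 1.

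With maternal mRNAs defined by a mean above 2 FPKM in MII oocytes, 20 of the 65 members were maternal (30.8%), against 22.5% of all genes in the table. On log2(mean FPKM + 1) with steps of 1 unit, Ezh2, Kdm1b, Kmt2c and Setd6 were lower by the 2-cell stage and then stayed within 1 unit, Kat6b, Prmt2 and Setd4 were lower first by the 4-cell stage, and Kdm6a, Sirt4 and Suv39h2 were lower again at each step. These 10 members made 50% of the maternal ones, against 56% of all maternal genes. The classes used FPKM without scaling, and the oocyte libraries had the higher sums. Kdm6a moved to the class lower first by the 4-cell stage without MII oocyte replicate 1 or without 2-cell control replicate 2. Without 2-cell control replicate 1, Sirt4 moved there as well, and Suv39h2 was lower by the 2-cell stage and then within 1 unit. A class of 7 members was lower by the 2-cell stage and higher again at the 4-cell stage, namely Hdac2, Kat7, Kdm1a, Setd2, Setd8, Sirt1 and Sirt6. They made 35% of the maternal members against 17.5% of the maternal genes in the table, a description with no test. Leaving out 1 library gave it 5 or 6 members, and without MII oocyte replicate 1 or 4-cell control replicate 2 it was no larger than a falling class. Of the 7, only Hdac2 and Setd8 stayed in it each time. Kdm1a and Setd2 left it without MII oocyte replicate 1 or 2-cell control replicate 1, and Sirt1 without MII oocyte replicate 1. Sirt6 left it without MII oocyte replicate 2 or 4-cell control replicate 1. Ehmt1 entered it without MII oocyte replicate 1 and Kmt2c without 2-cell control replicate 1. Both steps share the 2-cell control libraries, so a low value there enters both. In Kat7 this class rests on a single library at each embryo stage, and without 4-cell control replicate 2 Kat7 moved to the class lower at each step, and of the 7 members only Hdac2 was called at both steps.

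**Figure D3:**
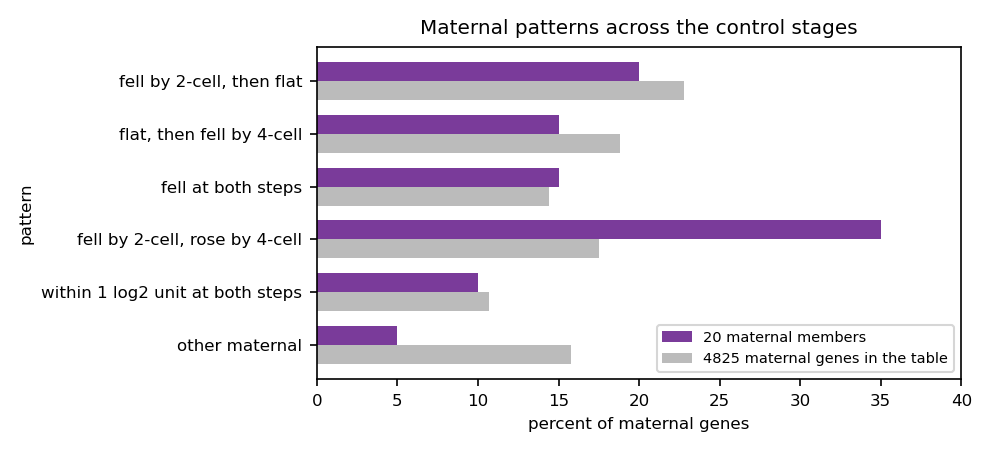
Percent of the 20 maternal members (purple) and of the 4825 maternal genes in the table (grey) in each pattern over MII oocytes, control 2-cell and control 4-cell embryos. The class that fell by the 2-cell stage and rose by the 4-cell stage holds 35% of the members and 17.5% of the genes, and the bars of the 3 falling classes lie close together.

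Ago2 kd was compared with control embryos at each stage. At the 2-cell stage, 1 of the 40 tested members, Prmt2, was called (2.5%, against 0.55% of all tested genes), and it was lower in kd embryos. At an unadjusted p of 0.05, 4 members passed (10% against 5.96% of all genes), with Hdac8 and Sirt5 higher and Kat6b and Prmt2 lower. The median log2 change was 0.03 over the members and 0.00 over all genes. The other members did not pass the test at this stage, which does not show that their levels were equal.

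Prmt2 had 35.9 and 24.0 FPKM in control against 1.47 and 2.42 FPKM in Ago2 kd 2-cell embryos. Both kd libraries lay below both control libraries, and also below both oocyte libraries at 46.0 and 33.0 FPKM. The log2 change was -3.39 (SE 0.40, 95% confidence interval -4.35 to -2.43, adjusted p = 0.0238, limma). The call was lost in a fit with the 2-cell groups alone (adjusted p = 0.287), with a pseudocount of 0.1 (adjusted p = 0.112), and without 2-cell control replicate 1 or 2-cell Ago2 kd replicate 1 (adjusted p = 0.061 and 0.0607), and the direction was the same in each. Prmt6 had 5.98 and 14.5 FPKM in control against 1.08 and 4.83 FPKM in kd embryos, a change that was not called (-1.58, SE 0.73, adjusted p = 0.942). The summed FPKM of the family was 44 and 40 in the control and 5.36 and 9.45 in the kd libraries. Hdac8 had 1.42 and 1.08 FPKM in control against 4.67 FPKM in each kd library (1.34, SE 0.31, adjusted p = 0.236). Both kd libraries list the same value to the last digit given, 4.67272 FPKM, so their agreement was not read as replication. Kat6b had 4.44 and 13.8 FPKM in control against 1.87 and 2.38 FPKM in kd embryos (-1.52, SE 0.54, adjusted p = 0.652). These members did not overlap between the groups, but passed only before adjustment, if at all. Without 2-cell control replicate 2, Suv39h2 was called besides Prmt2: the remaining control library held 28.4 FPKM and both kd libraries were listed at 0.

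At the 4-cell stage, Hdac2 and Kat6b were called, 2 of 40 members (5%), against 4% of all tested genes. They moved in opposite directions, Hdac2 lower and Kat6b higher in kd embryos. At an unadjusted p of 0.05, Prmt10 and Kdm3a were also lower, 4 members in all (10% against 15.4% of all genes). The median log2 change was -0.36 over the members and 0.00 over all tested genes, with 25 members lower and 14 higher. Without 4-cell control replicate 2 the median of the members was -0.04 and Sirt6 was called as well. The share of called members was close to that of all genes.

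Hdac2 had 64.0 and 31.3 FPKM in control against 0.13 and 0.172 FPKM in Ago2 kd 4-cell embryos. The kd libraries lay far below the control libraries and beside the 2-cell libraries of both kinds, which were at 0.0881 to 0.153 FPKM. The log2 change was -5.32 (SE 0.54, 95% confidence interval -6.60 to -4.03, adjusted p = 0.00257). Hdac1 had 8.57 and 0.964 FPKM in control against 0.218 and 0.312 FPKM in kd embryos (-1.78, SE 0.81, adjusted p = 0.366). The summed FPKM of the deacetylase family was 87.2 and 45.3 in the control and 8.57 and 12.1 in the kd libraries, of which Hdac6 made 90.9% and 95.3%. Hdac6 itself had 14.0 and 12.4 FPKM in control against 7.79 and 11.6 FPKM in kd embryos (-0.43, SE 0.45, adjusted p = 0.767).

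Kat6b had 0.0591 and 0.22 FPKM in control against 16 and 14.4 FPKM in Ago2 kd 4-cell embryos. The kd libraries did not overlap the control libraries. They lay at the level of the oocytes, 10.6 and 17.3 FPKM, but far above the 2-cell kd libraries, 1.87 and 2.38 FPKM. The log2 change was 3.83 (SE 0.54, 95% confidence interval 2.55 to 5.11, adjusted p = 0.0112). Kat7 was split in kd as in control embryos, with 0 and 27.2 FPKM. For both Hdac2 and Kat6b the call held without each of the 4-cell libraries in turn, and it was lost in a fit with the 4-cell groups alone, which left 2 residual degrees of freedom (adjusted p = 0.212 and 0.235). The rise of Hdac2 and the fall of Kat6b from the 2-cell to the 4-cell stage use the same 4-cell control libraries as the kd comparison, so the comparisons are not independent.

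**Figure D4:**
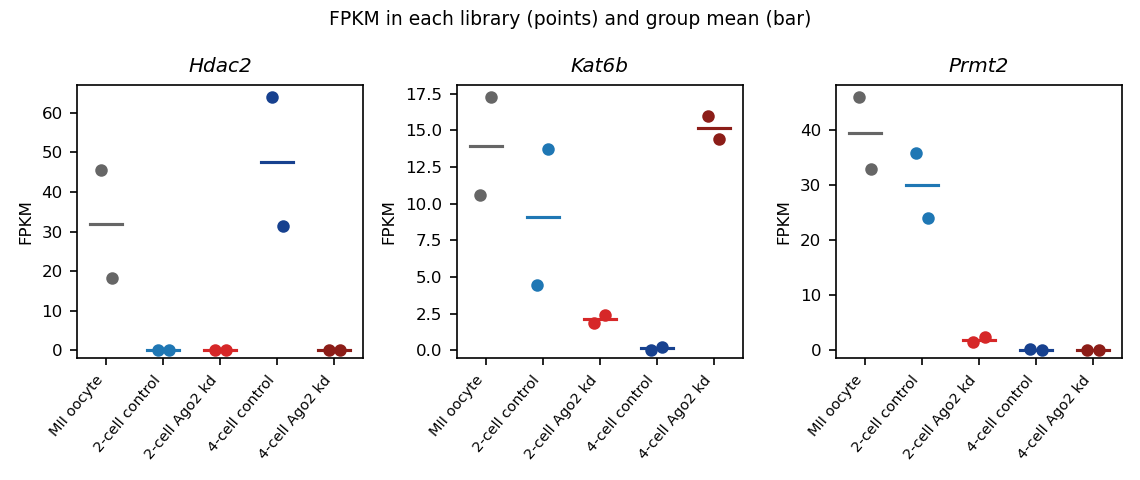
FPKM of Hdac2, Kat6b and Prmt2 on a linear axis in each library (points) and group mean (bars) for MII oocytes and control and Ago2 kd embryos. In 4-cell kd embryos, Hdac2 stays at or below 0.172 FPKM and Kat6b at or above 14.4 FPKM, and in 2-cell kd embryos Prmt2 stays at or below 2.42 FPKM.

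Other members were lower in 4-cell kd embryos without a call. Prmt10 had 15.9 and 24.1 FPKM in control against 0.342 and 6.86 FPKM in kd embryos (-2.66, SE 0.76, adjusted p = 0.138), and without 4-cell Ago2 kd replicate 2 the change was -3.94 and was called (adjusted p = 0.00225), whereas without replicate 1 it was -1.39 (adjusted p = 0.107). Kdm3a had 3.53 and 3.63 FPKM in control against 1.56 and 1.12 FPKM in kd embryos (-0.97, SE 0.35, adjusted p = 0.239). Kdm1a had 29.9 and 29.2 FPKM in control against 0.932 and 13.1 FPKM in kd embryos (-2.55, SE 1.35, adjusted p = 0.45). In contrast, Sirt1, at 14.6 and 26.9 FPKM in control against 28.1 and 30.6 FPKM in kd embryos, and Sirt7, at 7.53 and 6.33 and at 8.92 and 5.15 FPKM, stood high in kd and control embryos alike, with 95% confidence intervals of the change of -1.26 to 2.33 and -1.01 to 0.97. Setd4 was listed at 0 in both kd libraries, and Sirt4 was at 2.86 and 1.97 FPKM, after 3.07 and 1.26 FPKM in control embryos, so both were low with and without the kd.

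Markers and RNA measures moved with the kd at both stages, but not all of them at the 2-cell stage. In 2-cell embryos, where Prmt2 was called, the markers of the 2-cell burst summed to 613.7 to 830.3 FPKM in control and 344.1 to 593.6 FPKM in kd libraries, and the ribosomal RNA rows Rn18s-rs5 and AY036118 to 2057 and 2458 against 983 and 1721 FPKM. The oocyte markers overlapped, with sums of 1678 to 2044 FPKM in control and 1532 to 1724 FPKM in kd libraries. At the 4-cell stage the differences were wider. The 9 oocyte markers summed to 14.4 to 23.2 FPKM in control against 53.4 to 68.7 FPKM in kd embryos, with 4 of them listed at 0 in both libraries of each group. The 9 markers of the 2-cell burst in the table (Zscan4, Tcstv and Usp17l genes among them) summed to 2.47 to 7.21 FPKM in control against 25.1 to 32.2 FPKM in kd embryos. The ribosomal RNA rows summed to 38.8 and 204 FPKM in control against 3990 and 9535 FPKM in kd libraries, and the 4-cell control libraries were the ones apart, since the other 8 held 983 FPKM or more. These control libraries also enter the 2-cell to 4-cell comparison. The part of these measures in the changes of Prmt2, Hdac2, Kat6b and the other members was not tested. Without 4-cell Ago2 kd replicate 1, the library with many missing values, Hdac2 and Kat6b remained the called members.

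**Figure D5:**
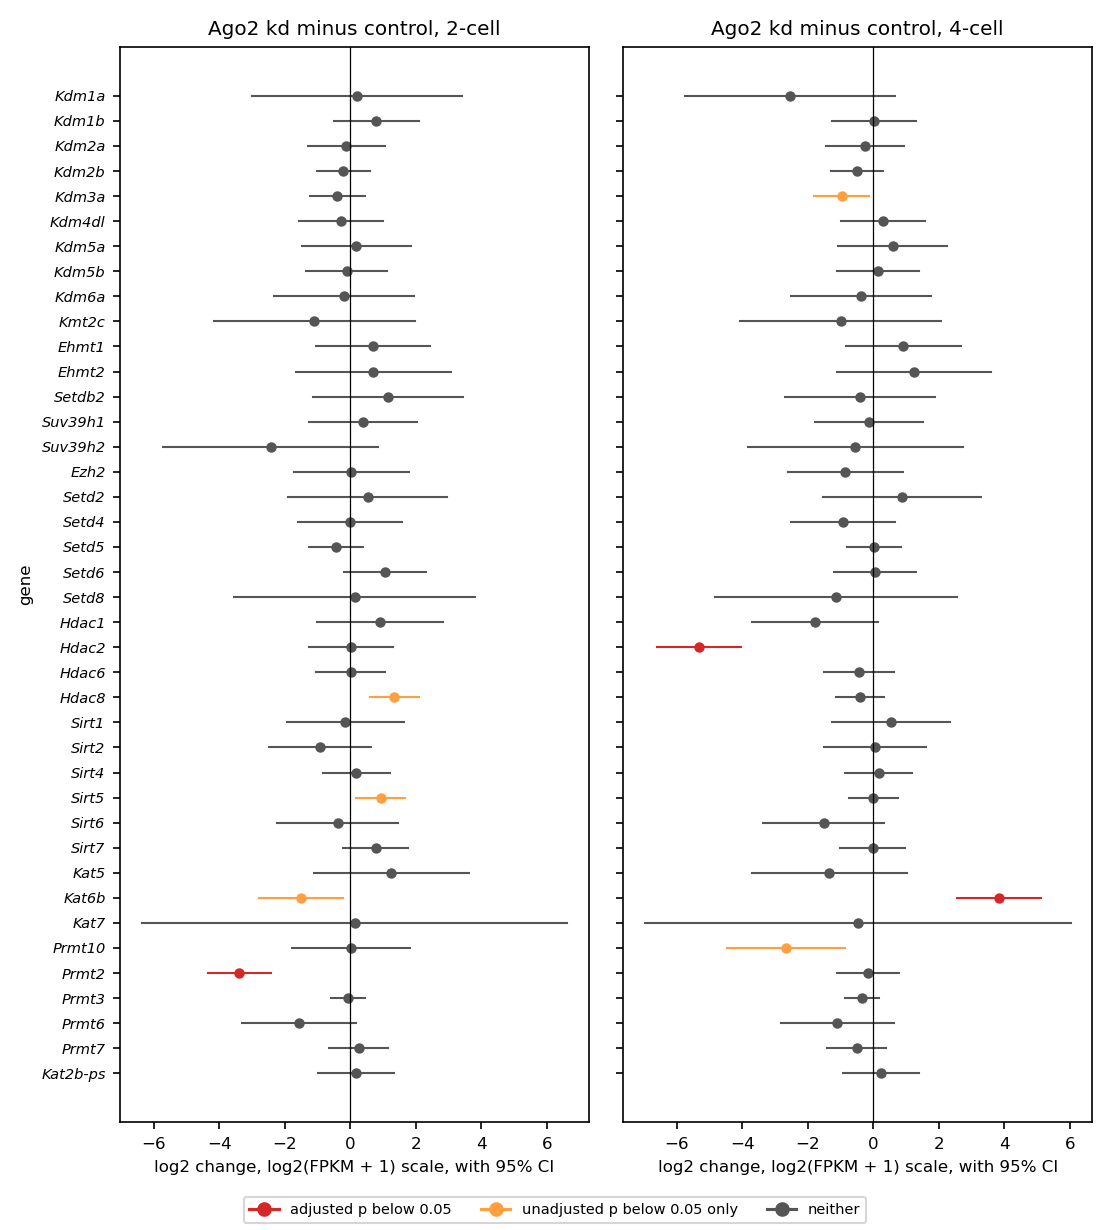
Log2 change between Ago2 kd and control embryos (points) with 95% confidence intervals (lines) for the 40 tested members at the 2-cell (left) and 4-cell stage (right), coloured by the test passed. Prmt2 at the 2-cell stage and Hdac2 and Kat6b at the 4-cell stage are the called members, and the interval of Kat7 is wide at both stages.

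Whether the kd effect differed between stages was tested directly, as the effect at the 4-cell minus that at the 2-cell stage. Kat6b, Hdac2 and Prmt2 were called, 3 of 40 members (7.5%), against 2.28% of all tested genes, and 5 passed an unadjusted p of 0.05 (12.5% against 13.4%). Kat6b was lower in kd embryos at the 2-cell stage, without a call there, and higher at the 4-cell stage. Its difference was 5.35 log2 units (SE 0.76, adjusted p = 0.0172). For Hdac2 it was -5.34 (SE 0.77, adjusted p = 0.0176), with 0.0881 and 0.118 FPKM in control against 0.153 and 0.0893 FPKM in kd embryos at the 2-cell stage. For Prmt2 (adjusted p = 0.0401) the 4-cell libraries were at 0.249 and 0 FPKM in control against listed at 0 in both kd libraries, so a fall such as that at the 2-cell stage could not have been measured there, and likewise for Hdac2 at the 2-cell stage. The call of Hdac2 was lost without any of the 2-cell libraries (adjusted p = 0.0514 to 0.0622), that of Kat6b without 2-cell Ago2 kd replicate 1 (adjusted p = 0.058), and that of Prmt2 without any of 7 of the 8 embryo libraries (adjusted p = 0.0546 to 0.0973), with a pseudocount of 0.1, with no filter or with the embryo groups alone (adjusted p = 0.286, 0.0513 and 0.0731). Since Prmt2 at the 4-cell and Hdac2 at the 2-cell stage stood near 0 with and without the kd, these differences largely restate the change at the other stage. The median of this difference was -0.36 over the members and 0.00 over all genes.

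Ezh2 is shown as a member with matches to a well-known microRNA. MicroRNAs guide Argonaute proteins to mRNAs through their seed, bases 2 to 8, and miR-101 is known to repress Ezh2 in other cells. The mature mmu-miR-101a-3p (RefSeq, GRCm38.p6, chr4:101346957-101346977, minus strand) is printed with its seed in capitals, above the stretches of the Ezh2 3′ UTR that hold the complement GTACTGT in capitals, at chr6:47530474-47530494 and chr6:47530419-47530439 on the minus strand (GENCODE M21 transcript).
mmu-miR-101a-3p: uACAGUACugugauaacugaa
Ezh2 site 1: caggaaccttgaGTACTGTgg
Ezh2 site 2: tgaatttgcaaaGTACTGTaa

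The matches began 59 and 114 bases after the stop codon of a 3′ UTR of 402 bases. Among 15295 genes with a 3′ UTR at least that long, 2.71% held the match in its first 402 bases. Ezh2 had 18.3 and 9.24 FPKM in control against 14.0 and 12.7 FPKM in kd embryos at the 2-cell stage, where the libraries overlapped and the change was 0.03 (SE 0.74, 95% confidence interval -1.72 to 1.78). At the 4-cell stage it had 5.04 and 16.4 FPKM in control against 2.82 and 7.46 FPKM in kd embryos (-0.85, SE 0.74, interval -2.60 to 0.90, adjusted p = 0.687). The intervals leave room for changes of more than 1 log2 unit in either direction at the 2-cell stage, so a change of that size was not detectable with these libraries. Whether the microRNA is present was not analysed here.

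The enzymes work in complexes, and 146 genes for subunits, readers and enzymes with other names were read beside them, of which 126 were in the table and 92 were tested. From MII oocytes to control 2-cell embryos, 3 rose and 10 fell (14.1%, against 20.8% of all tested genes). Sap30, a subunit of the Sin3 deacetylase complex, went from 266 and 303 FPKM to 0 and 1.01 FPKM (-7.65, SE 1.46, adjusted p = 0.0115). Mphosph8, a HUSH subunit that binds methylated H3K9, went from 399 and 497 to 18.6 and 25.1 FPKM (-4.30, SE 0.32, adjusted p = 0.000288). Pcgf1 of Polycomb repressive complex 1 and the heterochromatin co-repressor Trim28 fell, with log2 changes of -5.16 and -3.83 (adjusted p = 0.0236 and 0.00525). Meaf6 and Cbx5 rose by 2.96 and 1.81 (adjusted p = 0.0119 and 0.0393), and Tbl1xr1, a subunit of the NCoR complex, was listed at 0 in oocytes and had 46.7 and 40.3 FPKM in 2-cell embryos (adjusted p = 0.000318).

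From control 2-cell to 4-cell embryos, 19 of the partner genes rose and 11 fell (32.6%, against 38.6% of all tested genes), with a median of 0.41 against 0.24 over all genes. Of the 22 tested acetyltransferase complex subunits 8 were higher and 3 lower, and the 8 tested COMPASS and MLL subunits, which work with the H3K4 methyltransferases, had none (adjusted p from limma). Mta2, of the NuRD complex that holds Hdac1 and Hdac2, went from 1.11 and 1.64 to 114 and 218 FPKM (6.07, SE 1.35, adjusted p = 0.0122), and Trim28 from 0.698 and 1.64 to 35.8 and 63.6 FPKM (4.53, SE 0.60, adjusted p = 0.0015). Pcgf5, Tada2a and Smyd5 rose by 4.24, 4.22 and 3.89 (adjusted p = 0.00653, 0.0399 and 0.00545). Bmi1 of Polycomb repressive complex 1 went from 211 and 159 FPKM to 0.0398 and 0 FPKM (-7.50, SE 2.31, adjusted p = 0.0401), and Msl3, Tbl1xr1 and Ncoa3 fell, with log2 changes of -6.17, -5.23 and -3.98 (adjusted p = 0.0078, 0.000202 and 0.0133). Cbx2 was listed at 0 in both control 4-cell libraries after 28.4 and 10.6 FPKM (adjusted p = 0.00341).

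After Ago2 kd, 0 of the 92 partner genes were called at the 2-cell stage in limma, against 0.55% of all tested genes. Before adjustment, 6 passed a p of 0.05, against 5.96% of all tested genes. Bmi1 was lower at this stage (211 and 159 FPKM in control, 0 and 0.0674 FPKM in kd libraries) and Trim28 higher, both without a call. Missing calls thus do not show equal levels. At the 4-cell stage 1 rose and 6 fell of the 92 (7.61%, against 4% of all tested genes). Trim28 had 35.8 and 63.6 FPKM in control against 7.22 and 2.04 FPKM in kd embryos (-3.29, SE 0.60, adjusted p = 0.0316), and Dnttip1, which forms the MiDAC complex with Hdac1 and Hdac2, had 2.49 and 2.48 FPKM against 0.508 and 0.2 FPKM (-1.37, SE 0.20, adjusted p = 0.0117). Kansl1 and Kansl3 belong to the NSL complex of the acetyltransferase Kat8. Kansl1 had 20.4 and 12.3 FPKM in control embryos and was listed at 0 in both kd libraries (adjusted p = 0.0276), and Kansl3 fell by 3.89 (SE 0.72, adjusted p = 0.034). Dmap1, of the TIP60 complex, fell by 1.22 (SE 0.21, adjusted p = 0.0257). Mphosph8 had 3.73 and 3.88 FPKM in control against 16.3 and 12.7 FPKM in kd embryos (1.68, SE 0.32, adjusted p = 0.0362). Trim28 was the partner gene whose kd effect differed between the stages (-5.54, SE 0.85, adjusted p = 0.0225), with 0.698 and 1.64 FPKM in control against 6.82 and 12 FPKM in kd embryos at the 2-cell stage.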

How the data were processed

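RNA-seq of 10 libraries, 2 for each of 5 groups, was analysed from a table of FPKM values that the authors deposited, made with HISAT2 2.1.0 on GRCm38 (mm10) and StringTie per the labels and the study's methods. CASAVA 1.4 is also named in the submitters' processing notes. How transcripts were reduced to 1 row per gene name and whether libraries kept strand were not given in the sources used here, and the depth is unknown. Groups came from the sample labels.

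Genes at or above 1 FPKM in at least 2 libraries were tested as log2(FPKM + 1) in limma 3.58.1 (R 4.3.3), with a mean for each of the 5 groups, a variance trend and 5 residual degrees of freedom, with Benjamini-Hochberg adjustment over all 8726 genes and a threshold of 0.05. The code was tested on simulated data. The contrasts were MII to 2-cell, 2-cell to 4-cell, Ago2 kd at each stage, and the difference of the kd effects. Tables and figures used Python 3.11.15, pandas 2.3.3 and matplotlib 3.10.9. The authors' own count-based comparisons were not used.

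Members and partner lists were chosen with earlier results of these data known. The text names members with an adjusted p below 0.05, the member with the highest mean FPKM of each family, the pair of a family farthest apart in a control step, and up to 5 called partner genes per direction; Dmap1 and other members named were added after their values were seen, and 1 partner gene that the rule names is not reported here. Of the 65 members, 63 matched GENCODE M21 by name and 2 by a RefSeq synonym. Alternatives were a pseudocount of 0.1, no filter, median scaling, quantile normalization, a replicate block, only the groups compared, and leaving out each library. Sperm markers Prm1 and Prm2 summed to at most 1.783 FPKM.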

Additional observations from a re-analysis of the deposited data

Results flagged for a closer look

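In 3 members the effect of the Ago2 kd differed between the stages by a test of the difference itself, the 4-cell minus the 2-cell effect on log2(FPKM + 1) in limma. The difference was -5.34 for Hdac2 (SE 0.77, adjusted p = 0.0176), which was near 0 FPKM in all 4 of the 2-cell libraries and high only in the control libraries at the 4-cell stage. Kat6b was lower in the kd libraries at the 2-cell stage, without a call there, and higher in them at the 4-cell stage. Its difference was 5.35 (SE 0.76, adjusted p = 0.0172). It was 3.23 for Prmt2 (SE 0.57, adjusted p = 0.0401), where the kd libraries at the 4-cell stage were listed at 0 and the control libraries held 0.249 and 0 FPKM. Hdac2 at the 2-cell and Prmt2 at the 4-cell stage had no room to fall, so for these members the difference largely restates the change at the other stage.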

How the results depend on the processing

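Among the members' changes with an unadjusted p below 0.05, which alone were recomputed gene by gene, none reversed its direction under the alternatives, and the cause of the differences below was not tested. With only the groups compared, 7 members instead of 4 were called from MII oocytes to 2-cell embryos, and 0 after the kd at the 2-cell and 0 at the 4-cell stage. The single call at the 2-cell stage, Prmt2, also became 0 with a pseudocount of 0.1. The replicate numbers did not pair the samples, since the correlation of same-numbered deviations was -0.09 to 0.09. With a replicate block, 4, 10, 0, 2 and 2 members were called in the 5 contrasts, instead of 4, 12, 1, 2 and 3. The block ended the call of Prmt2 at the 2-cell stage (adjusted p = 0.0647) and for the difference of the effects (adjusted p = 0.079). Leaving out 1 library gave 3 to 5 and 9 to 13 calls in the control steps, 0 to 2 and 2 to 3 after the kd at the 2-cell and 4-cell stage, and 0 to 4 for the difference of the effects. The 7 partner genes called at the 4-cell stage became 2 with a pseudocount of 0.1, 4 with no filter, 3 with quantile normalization and 2 with the replicate block, and the 1 called for the difference became 0 with quantile normalization and 0 with the block. With 2 libraries a group and unknown depth, changes in members split between replicates, such as Kat7, were not detectable.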
